A study of Arabidopsis thaliana with 12 samples.

Results

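LEAFY activation without new protein synthesis was described from 4 of the 12 arrays of the series. They were the 2 arrays of LEAFY-GR seedlings given dexamethasone with cycloheximide and the 2 of LEAFY-GR seedlings given cycloheximide alone. All were made from total RNA of Arabidopsis thaliana seedlings aged 9 days and treated for 8 h. Lot 1 and lot 2 each supplied 1 array to either treatment. The members were chosen by the sample titles and not by any measured value. The other 8 arrays, 2 a group, were LEAFY-GR seedlings given mock treatment or dexamethasone alone, untreated Landsberg erecta, and untreated 35S::LFY seedlings, which express LFY from the constitutive 35S promoter. The seedlings of these 8 arrays were also aged 9 days, and the mock and dexamethasone treatments also lasted 8 h. Every seedling compared here, controls included, carried LEAFY-GR and received cycloheximide. The labels used here do not name the promoter of LEAFY-GR, the line's background or the number of transgenic lines. No array of seedlings without LEAFY-GR that received dexamethasone was analysed here, so a response to the steroid itself cannot be told apart from a response to LEAFY. Separate cultures are not stated for the 2 lots, and the p-values therefore cover array-to-array spread that may be no more than technical.

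LEAFY is a plant transcription factor that turns shoot primordia into flowers by binding and activating floral genes. In LEAFY-GR it is fused to the steroid-binding part of the glucocorticoid receptor, which holds the protein in the cytoplasm until dexamethasone is added. Cycloheximide stops translation, so a transcript that still responds to dexamethasone in its presence is taken to need no newly made intermediate protein. How completely translation was blocked was not measured here. Blocking translation also stabilises many short-lived transcripts and depletes others, so the reference level here is that of cycloheximide alone and not that of an undisturbed seedling.

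The deposited value of a probe set is a linear intensity, called its signal below. The 4 arrays had median signals of 49.8 and 57.0 with dexamethasone and cycloheximide, and of 50.8 and 59.8 with cycloheximide alone. Replicates correlated at 0.971 and 0.959 on the log2(signal + 10) scale, and arrays of the same lot from the different groups at 0.974 and 0.97. The former pairs cross the lots and the latter do not, so the spread of treatment and of lot is not separated by these values. For the ubiquitin control, the 3′ probe signal divided by the 5′ one, a sign of RNA integrity, was higher with dexamethasone in both lots, at 1.74 against 1.72 and 1.5 against 1.4 in one set of control probes and at 2.27 against 1.86 and 1.63 against 1.42 in another. For actin the direction in lot 1 depended on the set of control probes (2.11 against 1.78, or 4.11 against 4.67). For GAPDH the ratio was lower with dexamethasone in both lots in one set, at 1.21 against 1.28 and 0.98 against 1.09, and mixed in the other, at 1.12 against 1.03 and 1.01 against 1.04. The part of RNA quality in the results was not tested.

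Dexamethasone raised 31 probe sets and lowered 13 in the presence of cycloheximide. Among those raised were GH3.17, which encodes an enzyme that joins auxin to amino acids, HAT2, a homeodomain-leucine zipper transcription factor gene, EXPA8, an expansin gene of wall loosening, and PS1, which encodes a presenilin. Those lowered included UGT76E1, a glycosyltransferase gene, PMEPCRF, a pectin methylesterase gene, and CSLD2, a cellulose synthase-like gene. Calls were made at an adjusted p under 0.05 with limma over all 22746 probe sets, of which 0.136% were called higher, 0.0572% lower and 0.193% in either direction. Of the 31, 30 changed at least 2-fold, and of the 13, 9 did. All 44 moved the same way in both lots, but calling on these same arrays favours such agreement, so it is not a separate check. An unadjusted p under 0.05 was found for 1401 probe sets, or 6.16%, and the median log2 change over all of them was -0.01.

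The lower calls were less firmly held than the higher ones. With the lot as a block all 44 calls passed again and the counts became 34 higher and 20 lower, whereas with arrays scaled to equal medians they became 27 and 4. With the 35S::LFY and Landsberg erecta arrays left out of the variance estimate 13 of the higher calls and 0 of the lower ones passed, with adjusted p-values of 0.0594 to 0.232 for the latter.

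**Figure D1:**
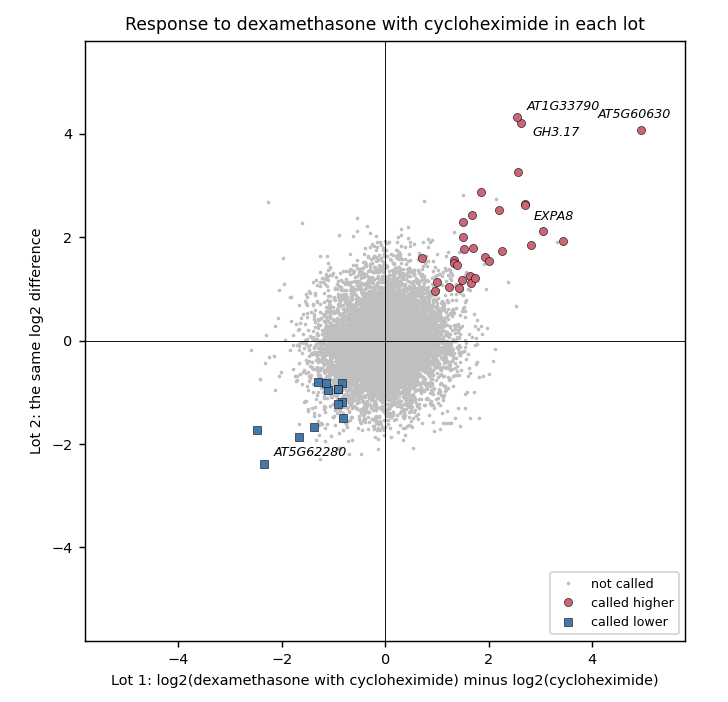
Each point is 1 probe set, with the log2 difference between dexamethasone with cycloheximide and cycloheximide alone in lot 1 on the x axis and in lot 2 on the y axis. The 31 called higher (red circles) lie at the upper right and the 13 called lower (blue squares) at the lower left, AT5G60630 at 4.95 and 4.06 being the most distant, while grey points are not called.

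A log2 difference of at least 1 in both lots was found upward for 66 probe sets (0.29% of all) and downward for 45 (0.198%). Of all probe sets, 13.2% had both dexamethasone arrays above both controls and 14.5% had both below. These 66 and 45 exceed the 31 higher and 13 lower calls, so uncalled probe sets also changed by that much in both lots. Some lower calls changed by less, such as AT1G21050 at -0.84 and -0.82. The size of the change in the 2 lots therefore does not set the calls apart from the other probe sets.

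The strongest response was that of AT5G60630, a locus known here by its code only. Its signals were 754.0 and 672.7 with dexamethasone and cycloheximide, and 14.7 and 30.8 with cycloheximide alone. Its log2 change was 4.51 ± 0.23 (SE, limma adjusted p = 9.84e-06), and it was called in all 21 alternative analyses. AT5G49770, also known here by its code only, read 505.2 and 540.1 against 133.0 and 65.1, a change of 2.36 ± 0.31 (adjusted p = 0.0112). Both loci are on a list of reported LEAFY targets that includes genes selected on these samples, so their rise is not independent evidence for that list, of which 3 of 16 loci were measured. The call of AT5G49770 was lost without either array of dexamethasone with cycloheximide (adjusted p = 0.076 and 0.0902).

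GH3.17 rose by 3.41 ± 0.29 log2 (adjusted p = 0.000408). Its signals were 223.8 and 336.2 with dexamethasone, and 27.9 and 8.8 without it, the latter below the pseudocount of 10. The response was 2.63 log2 in lot 1 and 4.2 in lot 2, the lot with the lower control signal. GH3.17 lowers the pool of free auxin in the plant, and it was the only 1 of 5 measured GH3 genes to pass. GH3.3 and GH3.1, auxin-inducible relatives, had log2 changes of -0.92 ± 0.40 and -0.52 ± 0.33, with adjusted p-values of 0.774 and 0.98. For GH3.3 the unadjusted limma p was 0.0435, in the direction opposite to GH3.17. WES1 had -0.20 ± 0.17 and GH3.9 0.03 ± 0.35.

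HAT2 belongs to the class II homeodomain-leucine zipper genes, which act in auxin and shade responses. It read 194.3 and 195.7 with dexamethasone against 53.5 and 28.1 without, a rise of 2.06 ± 0.24 (adjusted p = 0.00555). It was the only measured gene of the 10 on its list. The call was lost without the second array of dexamethasone with cycloheximide (adjusted p = 0.0502).

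EXPA8 was close to background with cycloheximide alone, at 5.3 and 7.1, and read 89.3 and 96.5 with dexamethasone. This rise of 2.67 ± 0.22 (adjusted p = 0.000408) was nearly equal in the lots, at 2.7 and 2.64. The control signals lay below the pseudocount, and the change was 3.72 with a pseudocount of 1 and 1.35 with 50. The other 9 measured alpha-expansins, which belong to the same wall-loosening family, did not pass, and their changes ran from -0.53 ± 0.28 for EXPA9 to 0.60 ± 0.30 for EXPA16. EXPA24 had 0.53 ± 0.33.

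PS1 encodes a presenilin, the catalytic subunit of gamma-secretase in animals. It read 47.7 and 49.2 against 11.5 and 19.3, a rise of 1.22 ± 0.20 (adjusted p = 0.0381). Its call passed in 1 of the 4 fits that each left out 1 of the compared arrays.

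Other raised loci have only a locus code in the annotation used here. AT1G33790 read 245.5 and 414.4 with dexamethasone against 33.4 and 11.3 without, a log2 change of 3.44 ± 0.40. AT2G47560 read 98.1 and 78.2 against 3.1 and 10.2, a change of 2.59 ± 0.32. In both loci the arrays of the groups were far apart, which calling on these same arrays favours. The cycloheximide mean of AT2G47560, 6.6, lay below the pseudocount, and its change was 3.71 with a pseudocount of 1 and 1.29 with 50.

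AT1G47400 read 844.8 in lot 1 and 311.7 in lot 2 with dexamethasone, against 110.9 and 79.1. Its change of 2.34 ± 0.35 passed (adjusted p = 0.0246), but not with arrays scaled to equal medians (0.0739). AT2G26390 was the brightest of those with a locus, at 2360.8 and 2319.2 against 821.2 and 566.7, a change of 1.76 ± 0.25.

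AT1G73600 read 119.3 and 199.1 against 35.7 and 32.7 (1.90 ± 0.22). AT5G03120 read 159.3 and 178.7 against 34.6 and 51.4 (1.77 ± 0.22). AT1G12100 read 133.4 and 164.9 against 19.9 and 42.4 (2.00 ± 0.32). In these 3 loci the groups did not overlap, which calling on these same arrays favours. Over all probe sets 13.2% had both dexamethasone arrays above both controls.

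The remaining raised loci were AT3G52470 (1.75), AT2G31730 (1.64), AT5G51140 (1.45), AT3G19390 (1.16), AT5G47550 (1.07) and AT5G43830 (0.96), as log2 changes. AT5G51140 had a cycloheximide mean of 7.3, and its change was 2.21 with a pseudocount of 1 and 0.61 with 50, where it did not pass (adjusted p = 0.215). A further 12 raised probe sets have no gene name here. They were 252415_at (2.92), 259790_s_at (2.68), 261717_at (2.66), 245702_at (2.36), 265633_at (1.78), 258742_at (1.47), 253041_at (1.45), 256310_at and 254300_at (1.42 each), 257690_at (1.39), 253692_at (1.33) and 263249_at (1.14). Leaving out 1 compared array ended 23 of the 31 higher calls in at least 1 of the 4 such fits. AT2G31730 passed in none of them, with adjusted p-values of 0.079, 0.174, 0.0909 and 0.0996. Without dexamethasone with cycloheximide replicate 1 the adjusted p was 0.076 for AT2G47560, 0.0572 for AT1G47400, 0.129 for AT1G12100 and 0.129 for AT2G26390. Without its replicate 2 it was 0.0619 for AT1G33790, 0.2 for AT1G12100, 0.0759 for AT5G03120 and 0.118 for AT2G26390. Without cycloheximide replicate 1 it was 0.0613 for AT1G47400 and 0.111 for AT1G12100, and without its replicate 2 it was 0.167 for AT1G47400 and 0.135 for AT2G26390. Of the 31 raised, 8 passed in each of the 4 fits without 1 compared array, namely AT5G60630, GH3.17, EXPA8, AT1G73600, AT3G52470, 261717_at, 265633_at and 256310_at.

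**Figure D2:**
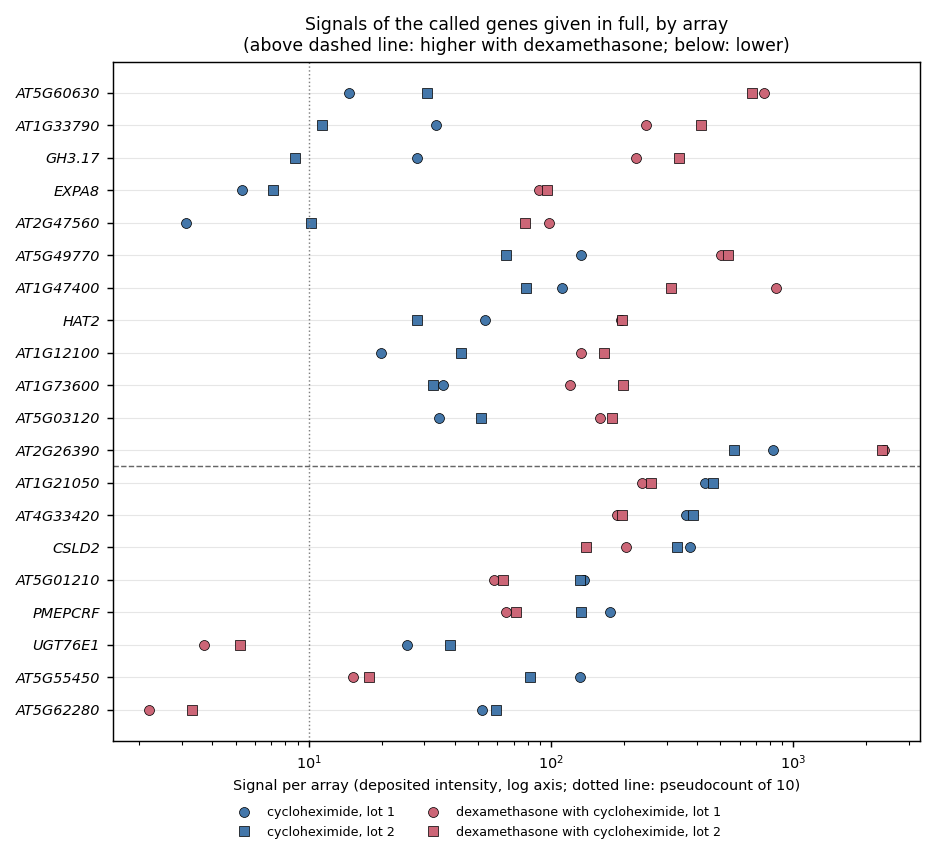
Signals on each of the 4 arrays (log axis) are shown for the 12 genes with the largest rise, above the dashed line, and the 8 with the largest fall, below it. Circles are lot 1, squares lot 2, red is dexamethasone with cycloheximide and blue cycloheximide alone. In each gene the red and blue points do not overlap, which calling on these same arrays favours.

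Among the genes that fell, AT5G62280 went from 51.7 and 59.3 with cycloheximide alone to 2.2 and 3.3 with dexamethasone, a log2 change of -2.36 ± 0.30 (adjusted p = 0.00902). AT5G55450 went from 131.2 and 81.8 to 15.2 and 17.7 (-2.11 ± 0.34, adjusted p = 0.0357). Both loci have only a code in the annotation used here. The groups were well separated in each, which calling on these same arrays favours, and 14.5% of all probe sets had both dexamethasone arrays below both controls. With arrays scaled to equal medians AT5G62280 passed (limma adjusted p = 0.00632) and AT5G55450 did not (0.0751). With only the 8 LEAFY-GR arrays neither passed (0.0594 and 0.135).

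UGT76E1, of the family of enzymes that add sugars to small molecules, fell from 25.4 and 38.1 to 3.7 and 5.2 (-1.52 ± 0.21, adjusted p = 0.019). Its lower signals and those of AT5G62280 lay under the pseudocount. With a pseudocount of 1 the change of UGT76E1 was -2.57 and did not pass (adjusted p = 0.153), and with 50 AT5G62280 did not pass (adjusted p = 0.0512). PMEPCRF, whose enzyme family removes methyl groups from wall pectin, fell from 175.2 and 132.4 to 65.0 and 71.4 (-1.06 ± 0.16, adjusted p = 0.0287). CSLD2, of a gene family needed for the growth of root hairs, fell from 373.2 and 330.5 to 203.7 and 138.8 (-1.02 ± 0.17, adjusted p = 0.0385). With arrays scaled to equal medians, UGT76E1 passed (adjusted p = 0.00925) and PMEPCRF (0.115) and CSLD2 (0.218) did not.

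AT5G01210 fell from 137.3 and 131.6 to 58.2 and 63.2, AT4G33420 from 359.0 and 384.5 to 186.4 and 196.5, and AT1G21050 from 432.7 and 464.5 to 237.7 and 258.7. Their log2 changes were -1.03 ± 0.15, -0.92 ± 0.14 and -0.83 ± 0.13. These were small changes with close replicates, and they did not pass with arrays scaled to equal medians. The limma adjusted p was then 0.106 for AT5G01210, 0.124 for AT4G33420 and 0.0751 for AT1G21050. The other 5 lowered probe sets have no gene name here, with log2 changes of -1.77 for 250662_at, -1.15 for 266364_at, -1.07 for 260637_at, -0.98 for 260914_at and -0.93 for 265740_at.

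In the 4 fits that each left out 1 compared array, 0 of the 13 lowered probe sets passed in all 4 and 8 passed in none. The count of lower calls went from 13 to 8 without dexamethasone with cycloheximide replicate 1, cycloheximide replicate 1 or cycloheximide replicate 2, to 6 without dexamethasone with cycloheximide replicate 2, to 4 without 35S::LFY replicate 2, and to 2 without 35S::LFY replicate 1 or either Landsberg erecta array. The count of higher calls went from 31 to 17 and 14 without dexamethasone with cycloheximide replicate 1 and 2.

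The same genes could be read on separate arrays, those of LEAFY-GR seedlings given dexamethasone or mock treatment with no cycloheximide. Of the 31 probe sets raised with cycloheximide, 15 were also called higher there, or 48.4%, against 0.215% of all probe sets, and 0 were called lower. Of the 13 lowered, 4 were also called lower, or 30.8%, against 0.259% of all, and 0 were called higher. In either direction 0.475% of all probe sets were called. Without dexamethasone replicate 1 the 15 became 9, and without dexamethasone with cycloheximide replicate 1 or 2 they became 8 and 7. The 4 became 2 without mock replicate 2 or 35S::LFY replicate 2, and 1 without dexamethasone with cycloheximide replicate 2, either cycloheximide array, 35S::LFY replicate 1 or either Landsberg erecta array. These comparisons share no array but share each probe set's variance estimate. The median log2 change without cycloheximide was 1.00 for the 31 and -0.48 for the 13, beside 0.07 for all probe sets.

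AT5G60630 had the largest rise without cycloheximide too, 5.43 ± 0.23, with 2994.6 and 2463.8 against 58.1 and 49.1. AT5G49770 read 80.1 and 82.3 with dexamethasone and 3.2 and 2.3 in mock, a change of 2.84 ± 0.31 in which the mock signals lay below the pseudocount. AT2G26390 read 211.8 and 141.7 against 19.3 and 18.8, and AT1G73600 731.6 and 1032.1 against 146.6 and 126.3. Their log2 changes were 2.66 ± 0.25 and 2.59 ± 0.22, beside 1.76 and 1.90 with cycloheximide.

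GH3.17 also passed without cycloheximide, with 282.4 and 295.5 against 78.7 and 96.4 (1.62 ± 0.29, adjusted p = 0.0366). In dexamethasone against mock it passed in 0 of the 4 fits without 1 compared array. Among the lowered, those called in both were AT5G62280, AT5G55450, AT5G01210 and 266364_at. AT5G55450 read 2.1 and 8.2 with dexamethasone against 291.3 and 442.8 in mock (-4.64 ± 0.34).

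For the 15 raised in both comparisons the difference between the responses, tested as an interaction, passed for 0, with estimates from -0.92 to 1.79 log2 and a lowest adjusted p of 0.445 in limma. That does not show that the responses were equal.

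**Figure D3:**
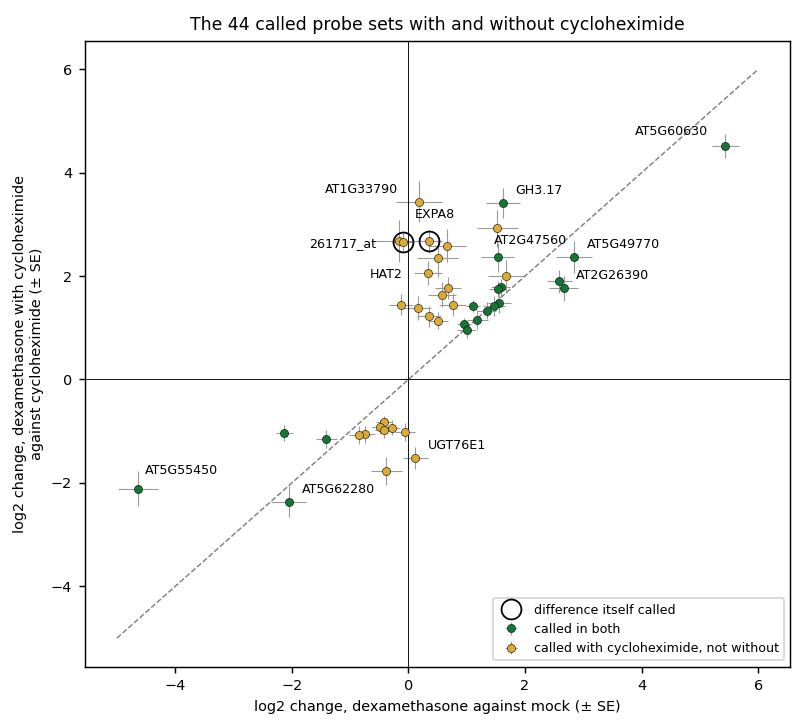
For each of the 44 called probe sets the log2 change with dexamethasone against mock is on the x axis and that with cycloheximide present on the y axis, with standard errors as bars and equality as the dashed line. The 19 green points passed in both comparisons, the 25 yellow points only with cycloheximide, and the rings mark EXPA8 and 261717_at, whose responses differed by test.

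Of the 31 raised probe sets, 16 were not called without cycloheximide, with log2 changes there of -0.17 to 1.68. The nearest to passing was AT1G12100 (1.68 ± 0.32, adjusted p = 0.0507). EXPA8, HAT2, AT1G33790, AT2G47560, PS1, AT5G51140 and AT5G03120 were among them. EXPA8 read 177.3 and 228.6 with dexamethasone and 122.0 and 196.8 in mock, and HAT2 298.6 and 253.3 against 176.4 and 264.4. In both the arrays of these groups overlapped.

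The interaction passed for 2 of these 16. For EXPA8 the response with cycloheximide exceeded that without by 2.31 ± 0.31 log2 (adjusted p = 0.0433). For 261717_at it did so by 2.76 ± 0.26 (adjusted p = 0.00678), with 430.9 and 377.0 against 57.3 and 53.1 in the presence of cycloheximide and 125.4 and 141.4 against 133.4 and 153.9 in its absence. In 21 alternative analyses the interaction passed in 4 for EXPA8 and in 16 for 261717_at. Of all probe sets 0.0308% passed this test, 0.0264% with the response higher in the presence of cycloheximide and 0.0044% with it lower. In the other 14 the lowest adjusted p was 0.161, for AT1G33790.

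Levels in the 4 LEAFY-GR groups put these changes in context. Both cycloheximide groups are the arrays on which the calls were made, so their levels against mock are not independent of the calls and are given side by side as a description. Of the 31 raised probe sets, 22 had both cycloheximide arrays below both mock arrays, as did 36.8% of all probe sets, and 6 had both above, as did 30.1% of all. With dexamethasone added, 18 had both arrays above both mock arrays (30.9% of all probe sets), 8 had both below (37.9% of all) and 5 overlapped.

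EXPA8 remained below mock, at 89.3 and 96.5 against 122.0 and 196.8. PS1 read 47.7 and 49.2 against 137.0 and 131.0 in mock, and AT5G51140 40.4 and 34.1 against 141.3 and 132.7. HAT2 overlapped with mock, at 194.3 and 195.7 against 176.4 and 264.4. In these genes dexamethasone with cycloheximide gave levels between those of cycloheximide alone and mock, or near mock.

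Other raised genes went well above mock. AT5G60630 read 754.0 and 672.7 against 58.1 and 49.1 in mock, and GH3.17 223.8 and 336.2 against 78.7 and 96.4. AT5G49770 and AT2G26390 were high with cycloheximide alone, at 133.0 and 65.1 and at 821.2 and 566.7, against mock signals of 3.2 and 2.3 and of 19.3 and 18.8, and were higher still with both agents. Of the 13 lowered, 11 had both arrays of dexamethasone with cycloheximide below both mock arrays, beside 37.9% of all probe sets, and the low values on those same arrays also entered the calls. Whether cycloheximide acted to the same degree in both groups was not tested.

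**Figure D4:**
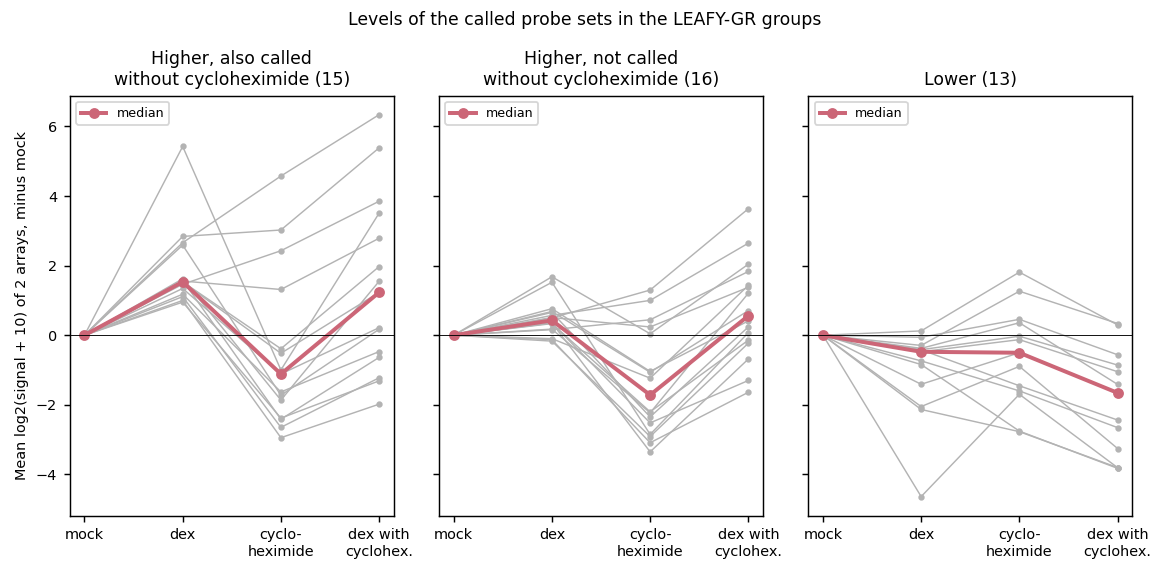
Lines give the mean log2(signal + 10) of 2 arrays in mock, dexamethasone, cycloheximide and dexamethasone with cycloheximide, minus the mock value, for the raised probe sets called (15) or not called (16) without cycloheximide and for the 13 lowered. The red medians in turn are 1.53, -1.12 and 1.23 in the left panel, 0.43, -1.72 and 0.56 in the middle panel, and -0.48, -0.50 and -1.66 in the right panel, after 0 in mock.

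A further separate set of arrays was that of 35S::LFY against Landsberg erecta, where LEAFY is made throughout life. Of the 31 raised probe sets 2 were called higher there, AT5G60630 and AT1G47400, against 0.171% of all probe sets, and of the 13 lowered 1 was called lower, AT5G62280, against 0.123% of all. AT5G60630 read 156.9 and 127.2 in 35S::LFY against 26.6 and 33.7 (1.92 ± 0.23, adjusted p = 0.00752). AT1G47400 read 469.8 and 498.6 against 99.4 and 90.2 (2.24 ± 0.35, adjusted p = 0.0311), although it was not called with dexamethasone alone, at 50.7 and 48.5 against 27.1 and 38.0.

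AT5G62280 was listed at 2.3 on both 35S::LFY arrays against 38.7 and 50 (-2.14 ± 0.30, adjusted p = 0.017). GH3.17, at 171.0 and 182.5 against 165.0 and 145.6, and AT5G49770, at 2.9 and 2.3 against 1.3 and 2.3, were not called in the constitutive line. The median log2 change there was 0.23 for the 31 and -0.08 for the 13, beside -0.04 for all probe sets. The counts of 2 and 1 both became 0 without 35S::LFY replicate 1 or 2 or Landsberg erecta replicate 1 or 2, and the count of 1 was also 0 without dexamethasone with cycloheximide replicate 2 or cycloheximide replicate 2. The count of 2 was 1 without dexamethasone with cycloheximide replicate 1.

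Genes of floral, hormone, wall and stress pathways were read from 15 lists of 316 entries, of which 69 loci had a named probe set. In all, 5 of the 69 were called higher, AT5G60630, AT5G49770, GH3.17, HAT2 and EXPA8, 0 were called lower, and 8 had an unadjusted p under 0.05. Over all probe sets these shares were 0.136%, 0.0572% and 6.16%. The lists were chosen with earlier results of these data known. The list of reported LEAFY targets, which holds AT5G60630 and AT5G49770, includes genes selected on these samples. The counts are therefore a description and not a test of the lists. Each list's median is given below beside the -0.01 of all probe sets.

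Of the floral organ identity genes, which specify sepals, petals, stamens and carpels or shape them, 7 of 24 were measured, with 0 called by limma, 0 at an unadjusted p under 0.05 and a median of -0.01. RBE, a petal regulator, read 14.4 and 27.7 with dexamethasone against 23.5 and 35.1 (-0.36 ± 0.30). UFO, a partner of LEAFY, was near background at 4.4 and 4.5 against 3.0 and 8.0, as were SPL, at 1.9 and 3.1 against 3.5 and 4.6, and JAG, at 2.9 and 9.5 against 1.8 and 9.8. PTL, a gene of petal formation, read 11.2 and 11.4 against 1.8 and 21.2, with the cycloheximide arrays on either side of the others. Signals this low leave little room to detect a fall.

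Of the flowering time genes 6 of 23 were measured, with 0 called, 0 at an unadjusted p under 0.05 and a median of -0.01. FD, the partner of the mobile flowering signal FT and a reported LEAFY target, read 39.7 and 79.2 against 32 and 75.9 (0.15 ± 0.49), with lots farther apart than treatments. GI, a clock-linked activator of flowering, had -0.16 ± 0.16, AGL24 -0.11 ± 0.32 and SMZ 0.07 ± 0.19. AGL42 read 27.6 and 18.3 against 10.4 and 20.6 (0.38 ± 0.30). Of the meristem genes 4 of 22 were measured, with 0 called, and the median was -0.08. PHV had -0.54 ± 0.31, YAB3 0.23 ± 0.17, CLV3 -0.17 ± 0.22 and LAS 0.02 ± 0.31.

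Of the AUX/IAA genes, which encode repressors of auxin responses, 6 of 26 were measured and 0 were called. Their median was 0.20, and 1, IAA29, had an unadjusted p under 0.05, at 30.5 and 31.5 against 13.4 and 16.8 (0.71 ± 0.32, adjusted p = 0.796). IAA18 had 0.24 ± 0.20, IAA34 0.40 ± 0.33 and IAA31 -0.50 ± 0.46. The GH3 list had a median of -0.20. The auxin synthesis genes YUC6, YUC4 and YUC2 were the measured 3 of 26 genes for auxin synthesis, transport and perception, with 0 called and a median of -0.06. Their changes were 0.76 ± 0.45, -0.29 ± 0.28 and -0.06 ± 0.32.

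Of the XTH genes, whose enzymes cut and rejoin wall xyloglucan, 10 of 33 were measured and 0 were called, with a median of -0.09. The members with the smallest p-values were XTH21 (-0.51 ± 0.28), XTH33 (-0.75 ± 0.41), EXGT-A3 (0.37 ± 0.22) and XTH26 (-0.47 ± 0.32). XTH18 was among the brightest, at 6742.6 and 6694.3 against 5773.1 and 6730.7 (0.11 ± 0.20), and XTH19 read 556.2 and 536.0 against 628.8 and 594.7 (-0.16 ± 0.24). XTH19 was called lower with dexamethasone alone, at 2.1 and 9.7 against 46.4 and 48.6 in mock (-1.90 ± 0.24, adjusted p = 0.0044). The alpha-expansin list had a median of 0.09.

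The 2 measured cytokinin genes had 0 calls, ARR15 with -0.92 ± 0.41 (unadjusted p = 0.044, adjusted p = 0.775) and RR16 with 0.15 ± 0.35. The 3 gibberellin receptors GID1A (0.04 ± 0.19), GID1B (-0.04 ± 0.25) and GID1C (-0.10 ± 0.27), of a list of 21 gibberellin genes, had 0 calls and a median of -0.04. Of the immunity genes 4 of 21 were measured, with 0 calls and a median of -0.13, and EFR, a receptor of a bacterial protein, had -0.50 ± 0.34. BIK1 had -0.15 ± 0.16, WRKY53 0.31 ± 0.42 and WRKY22 -0.11 ± 0.15. Of the stress and detoxification genes 6 of 26 were measured, with 0 calls and a median of 0.01. COR15A had -0.74 ± 0.42, CML37 0.37 ± 0.42 and COR47 -0.09 ± 0.23. STZ, a zinc-finger gene called higher with dexamethasone alone (0.96, adjusted p = 0.0375), read 8839.6 and 8032.9 against 7160.6 and 8824.4 here (0.08 ± 0.17). No SAUR gene had a named probe set.

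**Figure D5:**
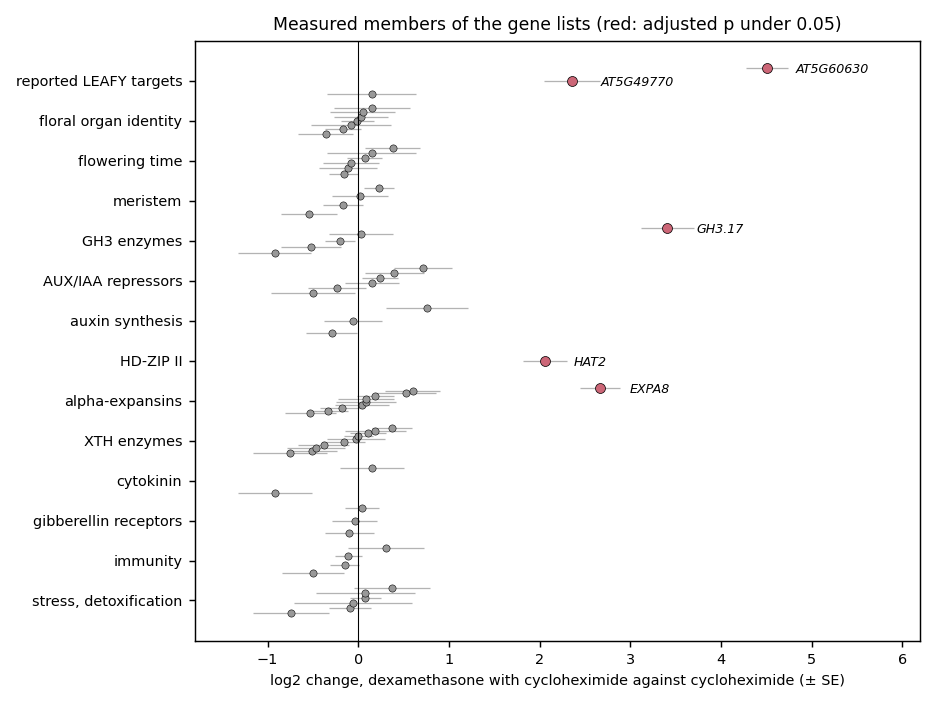
Each point is a measured gene of a list, with its log2 change between dexamethasone with cycloheximide and cycloheximide alone on the x axis and standard errors as bars. The 5 called genes (red, adjusted p under 0.05) lie at 2.06 to 4.51, and the other members (grey) lie between -0.92 and 0.76.

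Of 30 marker genes of seedling cell types, 4 had a named probe set. The leaf mesophyll markers LHCB4.1 and RCA had summed signals of 10498.5 and 9576.8 with dexamethasone and 8543.1 and 9954.3 without. The root hair marker EXPA7 read 43.2 and 38.3 against 34.2 and 41.6, and the guard cell marker FMA 43.5 and 60.6 against 48.2 and 64.4. The groups overlapped in each, and none was called. In RNA from seedlings with many cell types, fewer cells of a type and less RNA per cell cannot be told apart.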

How the data were processed

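The authors deposited 1 linear intensity per probe set and array. The software behind it is not stated in the labels. With the lowest and highest 2% of values removed, the arrays had means of 150.01 to 150.02, so they were taken as already scaled and used as deposited. Of 22810 probe sets the 64 control probe sets were left out. Names came from the array annotation and the RefSeq table of TAIR10.1, used for names only, and 13436 of the 22746 tested probe sets matched 1 locus. The other 9310 are unnamed here. No named probe set was LFY, so the labels were not checked by its level.

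On log2(signal + 10), a group-means model over the 12 arrays was fitted in limma 3.58.1 (R 4.3.3). It left 6 residual degrees of freedom, and the prior with an intensity trend added 5.3. Benjamini-Hochberg adjustment ran over all probe sets. The pseudocount shrinks the fold change of a dim probe set. ± is a standard error of that fit. On simulated data for this comparison, 96% of changes of 2 log2 and 37% of changes of 1 log2 were called among 22746 probe sets, with 7 false calls. At each size 100 probe sets were changed. The simulated noise was normal and independent around 1 mean per probe set over all 12 arrays. It held no lot effect and no lower level with cycloheximide. How far these rates hold for the real calls was not tested. The number of arrays limits the precision.

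The labels give the lot as a batch shared by the groups, and the lot 2 minus lot 1 differences of the 2 groups correlated at 0.334 over probe sets. For other pairs of LEAFY-GR groups this correlation ran from 0.102 (dexamethasone with cycloheximide, and mock) to 0.333 (dexamethasone, and mock). The lot as a block was an alternative, as no methods text states it as a term. It was 1 lot term common to all 12 arrays, and not a pairing within the 4 compared arrays alone. The values of every called probe set are given, those of the 12 highest and 8 lowest with 1 locus by array, with all measured reported LEAFY targets and up to 4 genes of each other list. Some further genes, JAG, XTH18 and XTH19 among them, were named after their values were seen. The genes, lists and comparisons were chosen with earlier results of these data known. Tables and plots were made in Python 3.11.15 (pandas 2.3.3, numpy 2.4.6, matplotlib 3.10.9).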

Additional observations from a re-analysis of the deposited data

Results flagged for a closer look

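The response to dexamethasone differed with and without cycloheximide by test for EXPA8, by 2.31 log2, and for 261717_at, by 2.76 log2, both larger with cycloheximide. The adjusted p of the difference ran up to 0.471 for EXPA8 and 0.113 for 261717_at over 21 alternatives. UGT76E1 fell with cycloheximide in both lots (-1.37 and -1.66) and had positive differences without it (0.16 and 0.08), opposite in direction on every array pair. The interaction, -1.64 log2, did not pass in limma (adjusted p = 0.23). Its signals without cycloheximide were 1.6 to 3.0, all below the pseudocount.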

How the results depend on the processing

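Every one of the 44 called probe sets kept its direction in all 21 alternative analyses, UGT76E1 in 20 since its mean signal was under 20. In 579 of their 923 values the call passed and in 344 it did not. AT5G60630 and 261717_at passed in all 21. With the replicate block (lot) 20 lower calls were made against 13, with equal medians and with no intensity trend 4 each, with only the 8 LEAFY-GR arrays 13 higher and 0 lower, and with only the 4 compared arrays 2 and 0. Leaving out 1 of the 12 arrays gave 14 to 43 higher and 2 to 11 lower calls. The higher calls shared with dexamethasone alone were 6 rather than 15 with the 8 LEAFY-GR arrays and 7 to 16 without 1 array. The shared lower calls, 4, were 1 with a pseudocount of 50, with equal medians and with no trend, 0 with the 8 arrays and 1 to 3 without 1 array. Those shared with 35S::LFY, 2 higher and 1 lower, were 1 higher with equal medians or no trend, and 2 lower with the block, a pseudocount of 1 or a mean signal of at least 20, and 0 lower with a pseudocount of 50. Without 1 array they ran from 0 to 3 and from 0 to 1. The block added calls and ended none of the 44. Settings with fewer arrays have fewer degrees of freedom by construction. For the others the cause was not tested. Of 47 uncalled genes 0 passed in any alternative, with 33 sign changes among 973 values. Background readings of the arrays were not analysed here. Of the probe sets, 15.14% to 17.04% lay below the pseudocount of 10 on the compared arrays, where changes are compressed.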
